A study of Homo sapiens with 28 samples.

Results

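Surface antigens that are used to direct antibodies and engineered T cells against multiple myeloma were examined in the chromatin of myeloma cell lines. The 8 genes were TNFRSF17, TNFRSF13B, TNFRSF13C, CD38, BST1, SDC1, GPRC5D and FCRL5, and a region belonged to a gene when the deposited annotation gave that gene's transcription start as its nearest. This assigned 55 of 154985 accessible regions: 22 to FCRL5, 11 to CD38, 9 to SDC1, 5 to TNFRSF13B, 3 to TNFRSF17, 2 each to TNFRSF13C and GPRC5D, and 1 to BST1. Of these, 16 lay within 2.5 kb of a start and are called promoter regions, and 39 were distal.

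The data were from ATAC-seq, in which the Tn5 transposase inserts sequencing adapters into DNA that is open to it, so that more reads over a region mean that the region was more accessible. The 28 libraries all came from established human myeloma cell lines in one culture medium. The untreated lines, 22 in number and each sequenced as a single library, were H1112, Karpas620, KMS11, KMS12BM, KMS12PE, KMS18, KMS20, KMS21BM, KMS26, KMS27, KMS28, KMS34, L363, LP1, MM1S, OCIMY5, OPM2, PCM6, PE1, RPMI8226, U266 and XG-6. A second library came from cells of Karpas620, KMS27, L363, MM1S, OPM2 and RPMI8226 after 10 µM lenalidomide for 3 days. No line had replicate cultures, so a difference between 2 lines is a difference between 2 libraries.

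Several of these antigens report plasma cell identity. TNFRSF17 (BCMA) and TNFRSF13B (TACI) are receptors for the B cell survival ligands BAFF and APRIL, and TNFRSF13C (BAFF-R) is a receptor for BAFF only. BAFF-R serves mainly mature B cells, whereas BCMA serves long-lived plasma cells and is the target of CAR T cells and bispecific antibodies. CD38 and its neighbouring paralogue BST1 (CD157) are ectoenzymes that use NAD, and CD38 is bound by daratumumab and isatuximab. SDC1 (CD138) is the heparan sulphate proteoglycan by which plasma cells are sorted. GPRC5D is an orphan receptor of the G protein-coupled family and FCRL5 (FcRH5) is an Fc receptor-like protein, and both are targets of T cell-engaging antibodies. Lenalidomide redirects the cereblon ubiquitin ligase towards the lymphoid transcription factors IKZF1 and IKZF3.

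Counts over all regions totalled 1599857 to 5564534 in the untreated libraries (median 2239819) and 2168680 to 4248017 in the lenalidomide libraries (median 2655490). Between 12.2% and 38.1% of all regions held a peak in an untreated line. Start regions of 10 plasma cell markers were in the data, 3 of them antigens studied here, and 5 to 10 (median 9) held a peak in a line. IGJ held a peak in only 3 lines, and each of the other plasma cell markers in 18 to 22. The summed level of the 10 markers was 218 to 443 CPM (counts relative to a library total of 1000000). It was 3.31 to 37.6 CPM for 5 of 7 myeloid markers and 12.5 to 72.2 CPM for 5 of 8 T and NK cell markers. B cell markers (6 of 7) had 64.3 to 165 CPM, with a peak in 22 lines at CIITA, 20 at BCL6 and 17 at BACH2 but in 1 to 3 at CD22, MS4A1 and PAX5. Stromal and epithelial markers had 12.5 to 131 CPM, with a peak in 21 lines at COL1A1, 9 at EPCAM, 6 at COL1A2, 5 at PDGFRB and 1 at KRT18. Of the T cell markers CD8A held a peak in 21 lines, CD3D in 2 and CD3E, CD3G and CD4 in 1 each, and the 5 myeloid markers held one in 0 to 3 lines. PCM6 had the lowest plasma cell sum, 218 CPM with 6 of 10 markers accessible, including the lowest level of PRDM1 (13.5 CPM against a median of 26.7). The libraries of KMS34 and PE1, which are labelled as different lines, correlated at Pearson's r = 0.92 over 41640 regions. Libraries of the same line with and without lenalidomide correlated at 0.92 to 0.95, while the next closest pair of lines, KMS27 and L363, reached 0.75 and the median of 231 pairs was 0.54. Whether KMS34 and PE1 share cells was not tested, and the effect of leaving out PE1 is given below.

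Sequences of regions that the results turn on are shown first, in GRCh37, 5′ to 3′ on the strand of the gene and free of annotated UTR. Each is 200 bases, with letters in capitals where they match one of 6 motifs searched on both strands: TGGGAA, the core bound by Ikaros proteins; GAAANNGAA, the core of the interferon-stimulated response element; GGAANNGAA, the ETS-IRF composite core; CAGCTG, an E box; and the NF-kB sequences GGGACTTTC and GGGAATTTC, of which the last can share letters with TGGGAA. The first 4 end at the base before the outermost annotated start and show the promoters of 2 genes whose starts were open in nearly every line (CD38 and SDC1) and of 2 that differed widely between lines (TNFRSF13B and GPRC5D). They lie at chr4:15779698-15779897 (+), chr2:20425195-20425394 (-), chr17:16875433-16875632 (-) and chr12:13105105-13105304 (-).

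CD38: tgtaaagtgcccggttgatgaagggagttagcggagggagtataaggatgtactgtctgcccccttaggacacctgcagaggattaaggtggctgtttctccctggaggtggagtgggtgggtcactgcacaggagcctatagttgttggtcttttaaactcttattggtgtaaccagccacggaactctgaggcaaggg
SDC1: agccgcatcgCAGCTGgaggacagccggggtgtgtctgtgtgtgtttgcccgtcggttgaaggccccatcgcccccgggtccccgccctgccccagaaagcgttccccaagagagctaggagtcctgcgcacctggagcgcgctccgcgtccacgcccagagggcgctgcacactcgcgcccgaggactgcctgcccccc
TNFRSF13B: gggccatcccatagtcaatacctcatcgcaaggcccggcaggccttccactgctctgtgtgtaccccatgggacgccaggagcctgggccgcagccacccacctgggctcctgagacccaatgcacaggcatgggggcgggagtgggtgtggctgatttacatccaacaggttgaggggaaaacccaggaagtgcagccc
GPRC5D: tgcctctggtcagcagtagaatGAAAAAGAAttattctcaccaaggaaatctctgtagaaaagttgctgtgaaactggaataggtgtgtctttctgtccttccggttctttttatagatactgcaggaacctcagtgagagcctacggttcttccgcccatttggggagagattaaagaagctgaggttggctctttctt

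The other sequences are the central 200 bases of 3 regions away from the outermost starts: the TNFRSF13B intron region that was the tallest of that gene, the far FCRL5 region that shared its highest lines with a CD38 intron region, and the FCRL5 region that was accessible in every line although it lies beyond the end of the gene. They lie at chr17:16873657-16873856 (-), chr1:157373322-157373521 (-) and chr1:157475526-157475725 (-).

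TNFRSF13B intron: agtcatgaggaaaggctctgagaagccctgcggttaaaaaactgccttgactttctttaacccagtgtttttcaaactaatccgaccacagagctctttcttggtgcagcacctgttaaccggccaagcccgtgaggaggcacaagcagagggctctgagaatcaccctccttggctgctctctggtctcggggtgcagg
FCRL5 far region: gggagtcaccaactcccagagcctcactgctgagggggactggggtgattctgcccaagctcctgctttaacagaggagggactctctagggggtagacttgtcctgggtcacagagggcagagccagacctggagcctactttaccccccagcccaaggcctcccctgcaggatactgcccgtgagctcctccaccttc
FCRL5 beyond the gene: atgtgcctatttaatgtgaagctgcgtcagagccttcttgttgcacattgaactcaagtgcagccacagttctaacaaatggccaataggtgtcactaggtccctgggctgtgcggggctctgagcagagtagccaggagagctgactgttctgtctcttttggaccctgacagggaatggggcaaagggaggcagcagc

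The upstream sequences differed in base composition, with a GC content of 71% and 19 CpG dinucleotides in SDC1, 63% and 5 in TNFRSF13B, 52% and 3 in CD38, and 43.5% and 3 in GPRC5D. The 300 bases at the centre of the start regions gave another order for CD38, with 70.7% and 36 CpG. There SDC1 had 73.3% and 25, TNFRSF13B 62.7% and 10, and GPRC5D 46.7% and 6. In the 300 bases around the centre of each of the 55 regions, CAGCTG was found in 16 (29.1%, against 21.5% of all 154985 regions), TGGGAA in 8 (14.5% against 21.3%), GAAANNGAA in 7 (12.7% against 15.8%) and GGAANNGAA in 4 (7.27% against 9.47%). GGGACTTTC and GGGAATTTC were found in 0 of the 55, against 0.647% and 0.357% of all regions. A match describes letters only, and says nothing about whether a factor was bound.

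Start regions fell into an upper and a lower tier. SDC1, TNFRSF17 and CD38 had starts that were open in nearly every line, with median levels of 41.3, 38.6 and 34.6 CPM per kb of region. GPRC5D was lower at 11.8, followed by FCRL5 at 6.37, TNFRSF13B at 4.37, TNFRSF13C at 2.59 and BST1 at 1.34 CPM per kb. Within the upper tier the order did not exceed the spread between lines, since SDC1 was above TNFRSF17 in 12 of 22 lines and TNFRSF17 was above CD38 in 12. The step from CD38 to GPRC5D was larger than the spread, with CD38 higher in 20 of 22 lines and interquartile ranges (26.9 to 42.3 against 6.01 to 16.6 CPM per kb) that did not overlap. Below it each gene's interquartile range overlapped the next, and GPRC5D was above FCRL5 in 16 lines, FCRL5 above TNFRSF13B in 12, TNFRSF13B above TNFRSF13C in 12 and TNFRSF13C above BST1 in 16. Reads over a region do not separate fewer cells with open DNA from less open DNA in each cell, nor either from the number of gene copies.

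**Figure D1:**
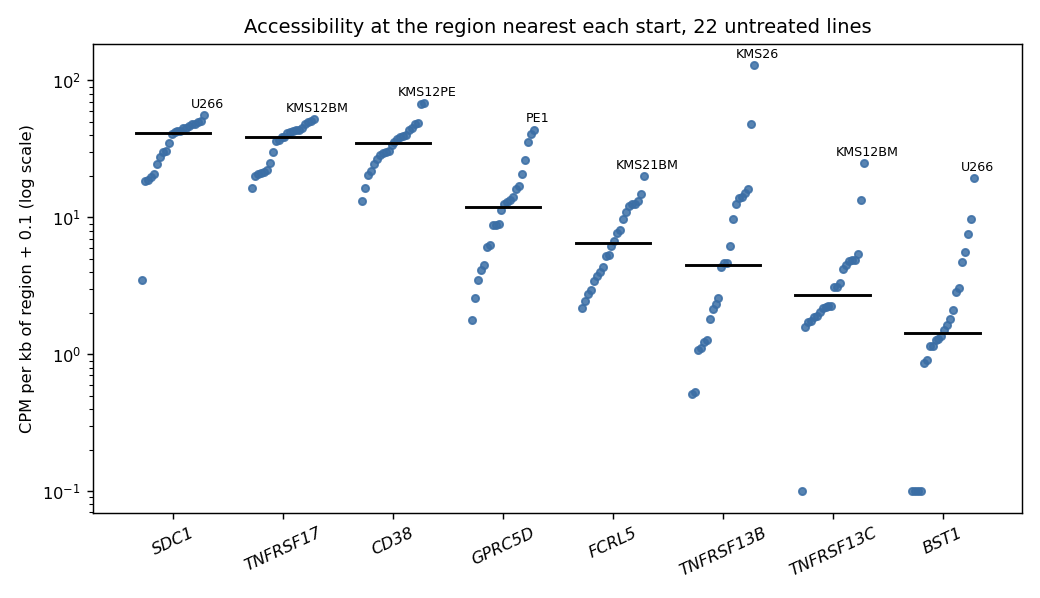
Level of the region nearest each gene's start in the 22 untreated lines, in CPM per kb of region plus 0.1 on a log axis; each point is 1 library, ordered by level within a gene, the black bar is the median, and the highest line is named. SDC1, TNFRSF17 and CD38 sit together at medians of 41.3, 38.6 and 34.6, apart from 1 low SDC1 point (PCM6), while TNFRSF13B spans 0.416 to 129.

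A region was called accessible in a line when MACS2 had found a peak of that line in it. By this measure the TNFRSF17 start was accessible in 22 of 22 lines, the CD38 and SDC1 starts in 21, GPRC5D in 11, FCRL5 in 8, TNFRSF13B in 3, BST1 in 2 and TNFRSF13C in 0. Of the 16 promoter regions 2 were accessible in all 22 lines (12.5%), against 13.4% of all promoter regions, and 4 in a single line, against 27%. Of the 39 distal regions 1 was accessible in all lines (2.56%), against 0.575% of all distal regions, and 13 in a single line, against 40.8%. The 3 regions open everywhere were the TNFRSF17 start and a pair at FCRL5. A further 4 regions held a peak in no untreated line. A line had 10 to 25 of the 55 regions accessible (median 15), with the most in H1112, which also had the largest total and the most accessible regions overall (58983), and the fewest in KMS18. H1112 held 6 of the 17 regions seen in 1 line only, and the part of depth in these counts was not tested.

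TNFRSF17 varied least of the antigens by the SD of its log2 level. Its start region, chr16:12058159-12059152, which spans the promoter, 5′ UTR and first exon of the gene and also overlaps the noncoding gene RP11-166B2.1, had 16.3 CPM in the lowest line (Karpas620), a median of 38.3 and 52.1 in the highest (KMS12BM). The SD on the log2 scale was 0.51, and 22.5% of 19333 promoter regions with a mean of at least 5 CPM varied less. A second region 1754 bases upstream was far lower, with a median of 3.71 CPM, and reached 18.6 CPM in U266, the only line with a peak there. Promoter regions together made up a median of 97.0% of the summed level of the gene.

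TNFRSF13B had the most uneven start. That region, chr17:16875104-16875715, had 0.254 CPM in KMS12PE, a median of 2.68 and 78.9 CPM in KMS26 (95% Wilson interval 66.4 to 93.7), with L363 next at 29.6 (22.9 to 38.2). These intervals cover counting error only. The SD was 1.55 on the log2 scale, and 92.4% of promoter regions varied less. Summed over all regions of a gene, GPRC5D had a slightly larger SD than TNFRSF13B (1.135 against 1.053). The tallest region of the gene was in an intron, chr17:16873273-16874240, which ranged from 2.79 CPM in PCM6 through a median of 14.2 to 116 in KMS26, and was accessible in 17 lines, against 3 for the start. Thus most lines had an open intron region beside a start at a low level, and in KMS26 both were high. Over all 5 regions, KMS26 had 285 CPM, 13.4 times the median of 21.3, and L363 had 64.8.

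The DNA around TNFRSF13B also gave many reads in KMS26. All other regions within 5 Mb, 513 in number, had 2.84 times the count of the median line in KMS26 and 1.56 times in L363, the next highest, whereas PCM6 had 0.50 times. Divided by this local count, TNFRSF13B was still highest in KMS26, at 100.3 CPM against 41.6 in L363 and a median of 24.8, or 4.05 times the median. The line with the lowest level, KMS12BM (4.47 CPM), also remained lowest at 8.88 CPM. The ratio of the highest to the lowest line, each plus 1 CPM, was 52.3 for TNFRSF13B and 17.8 for GPRC5D, but 10.3 and 12.6 after this division, and without KMS26 it was 12.0 for TNFRSF13B and still 17.8 for GPRC5D. No copy number was measured here, so the share of gene copies in these values was not tested.

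**Figure D2:**
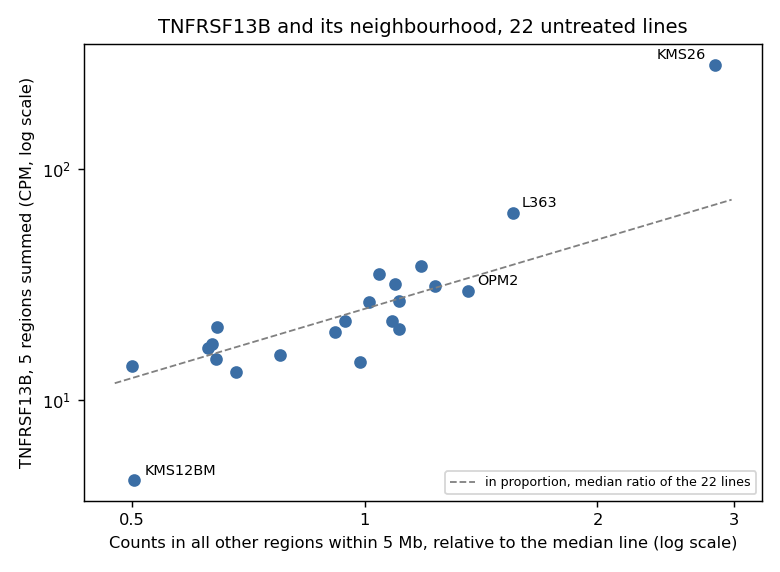
TNFRSF13B in the 22 untreated lines, with the summed level of its 5 regions in CPM against the count in all other regions within 5 Mb relative to the median line, both on log axes; each point is 1 library and the dashed line is proportionality at the median ratio. KMS26 lies at 2.84 and 285 CPM, above the line, and KMS12BM lies below it.

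TNFRSF13C and BST1 were near the lower limit of detection. The TNFRSF13C start, chr22:42322692-42322979, had a median of 0.745 CPM, and its highest line was KMS12BM at 7.10 CPM, followed by Karpas620 at 3.82. Summed over both regions, KMS12BM had 14.5 CPM and Karpas620 had 7.63, and the other lines ranged from 0.343 to 5.01. BST1 had 1 region, chr4:15704584-15705026, which it shares with FAM200B, and whose median was 0.592 CPM. U266 at 8.47 CPM and KMS20 at 4.30 were the only lines with a peak there. In 4 lines there was a count of 0 over BST1, which, at a floor of 3 counts per library, allows up to 1.30 CPM in KMS34, 1.38 in KMS11, 1.79 in KMS21BM and 1.88 in PE1.

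CD38 combined an open start with a variable set of surrounding regions. The start region, chr4:15779621-15780954, had 17.5 CPM in XG-6, a median of 46.1 and 91.1 in KMS12PE, with OPM2 close behind at 89.7. Upstream of the gene, chr4:15767713-15768499, 11.4 kb before the start, was accessible in 19 lines (1.73 CPM in Karpas620, median 14.4, 26.0 in RPMI8226) and a region 6.35 kb before it in 15 lines. H1112 had the highest level at 4 of the 11 CD38 regions, among them 31.6 CPM at 3.35 kb inside the gene, where the median was 4.68. The local count within 5 Mb was 1.42 times that of the median line in KMS12PE and 1.64 times in OPM2. The CD38 sum was highest in KMS12PE (187 CPM), but after division by the local count it was highest in RPMI8226 (182 CPM) and KMS12BM (169). Whether BST1, its neighbour on the same chromosome, follows CD38 could not be read at the low levels of BST1.

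The start of SDC1 was high in all lines except PCM6. This region, chr2:20424129-20425905, had a median of 73.4 CPM and a maximum of 99.2 in U266. The lowest line, PCM6, had 13 counts, or 6.04 CPM (95% interval 3.53 to 10.3), and no peak, and the next lowest was H1112 at 32.7. PCM6 was also lowest at the intron regions 8.4 and 15.4 kb from the nearest annotated start, with 12.6 CPM against a median of 44.5 and 6.04 against 38.8, and at 2.79 against 12.8 just upstream of an internal start. At 15.4 kb KMS11 was close to it, at 7.81. Elsewhere other lines were below PCM6. At 10.2 kb KMS11 had 2.76 CPM, KMS21BM 3.57, LP1 3.91, XG-6 4.99 and OPM2 6.26, against 6.51 in PCM6. At 14.4 kb H1112 had 3.06 CPM, Karpas620 3.82 and KMS27 10.1, against 10.2 in PCM6. The PCM6 sum over 9 regions was 52.5 CPM against a median of 233, and after division by the local count it was again the lowest, at 56.0. PCM6 was not low at the other leading antigens, with a CD38 start at 52.5 CPM (median 46.1) and a TNFRSF17 start at 29.8 (median 38.3). The myeloid markers in PCM6 summed to 24.6 CPM against a median of 7.43, with 2 of 5 accessible. CSF1R was at its highest (6.97 CPM), and SPI1 was at 13.9 CPM against a median of 2.75. CD14 and CD33 were at 0.930 CPM each, against medians of 1.46 and 0.974, and ELANE was at 1.86 against 1.12. The myeloid sum and SPI1 were higher in KMS12BM, at 37.6 and 34.2 CPM. The part of these markers in the SDC1 level was not tested. The remaining lines had sums of 96.0 to 330 CPM, highest in KMS12PE.

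**Figure D3:**
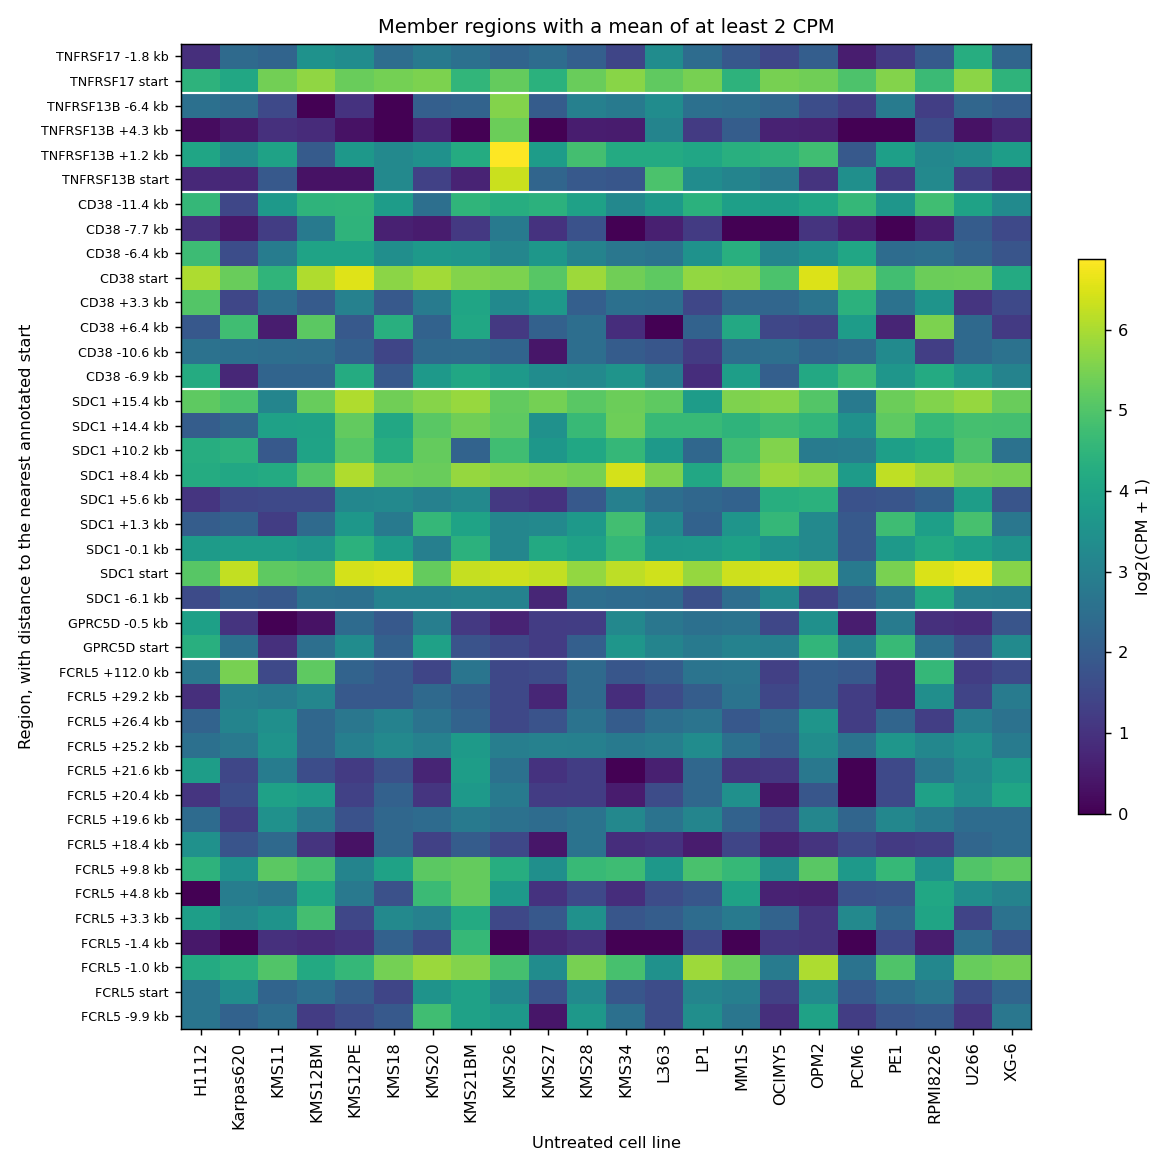
Levels, as log2(CPM + 1), of the 40 regions with a mean of at least 2 CPM (rows, grouped by gene in genomic order and labelled with the distance to the nearest annotated start) in the 22 untreated lines (columns). The starts of TNFRSF17, CD38 and SDC1 are bright across the lines except SDC1 in PCM6, TNFRSF13B is bright in KMS26, and the FCRL5 region 112 kb away is bright in Karpas620, KMS12BM and RPMI8226.

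GPRC5D had its regions at a pair of starts. The start region chr12:13105016-13105560 had 0.919 CPM in KMS11, a median of 6.43 and 23.8 in PE1, with OPM2 at 21.9 and H1112 at 19.2. The other region, 500 bases upstream of an internal start, correlated with it over the lines (r = 0.82) and ran from 0 in KMS11 to 14.0 in H1112. Summed levels ran from 0.919 CPM to 33.2 in H1112, 31.8 in OPM2 and 30.0 in PE1, and the lines between them formed a continuous series. KMS34, the library closest to PE1, had 19.5 CPM. The local count within 5 Mb was 1.24, 1.26 and 1.48 times that of the median line in H1112, OPM2 and PE1. After division by it, H1112 and OPM2 were still highest, at 26.9 and 25.3 CPM against a median of 10.3.

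FCRL5 had the most regions, and the region at its 5′ start was not the most accessible of them. The start region, chr1:157521759-157522473, had 1.47 CPM in OCIMY5, a median of 4.55 and 14.3 in KMS21BM. Higher levels were found inside the gene at chr1:157493589-157494466, which lies 1004 bases upstream of an internal start and overlaps exon, intron and a 3′ UTR of a short transcript. It had 5.11 CPM in PCM6, a median of 29.6 and 64.7 in OPM2, and was accessible in all 22 lines. So was chr1:157475183-157476068, outside the gene and 9.79 kb from the nearest annotated start, at 7.63 CPM in KMS12PE, a median of 23.2 and 36.9 in KMS21BM. The levels of both correlated over the lines (r = 0.76). Further regions were open in fewer lines, such as chr1:157480434-157481074, with a peak in 7 lines, a median of 4.06 CPM and 36.9 in KMS21BM but 0 in H1112.

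One far FCRL5 region and one CD38 intron region shared their highest lines. This pair was chosen after their values were seen. The FCRL5 region, chr1:157372944-157373898, 112 kb from the nearest FCRL5 start, had 43.4 CPM in Karpas620, 34.7 in KMS12BM and 22.7 in RPMI8226, and the other 19 lines had 0.625 to 5.57. The CD38 intron region, chr4:15786353-15787106, had 26.4, 34.5 and 44.4 CPM in the same lines, and the other 19 had 0 to 19.1 (KMS18). Over the 22 lines the regions correlated at r = 0.75, the highest of 603 pairs of regions from different genes. The high levels were present again in the lenalidomide libraries of Karpas620 (36.8 and 22.3 CPM) and RPMI8226 (27.8 and 33.2), which are separate libraries of these lines. The nearest gene to the far region is an assignment by distance alone.

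KMS12BM and KMS12PE, sister lines derived from one patient, differed at these antigens as much as the median pair of lines. They were more alike over the 41640 regions with a mean of at least 5 CPM, at r = 0.70 against 0.54 for the median pair. Over the 55 regions their log2 levels correlated at 0.72, the same as the median of all 231 pairs of lines, whereas libraries of the same line with and without lenalidomide correlated at 0.92 to 0.96. KMS12PE was higher at the SDC1 start (85.2 against 33.1 CPM), the CD38 start (91.1 against 65.2) and the TNFRSF13B sum (13.2 against 4.47). KMS12BM was higher at the TNFRSF13C sum (14.5 against 3.82), the CD38 intron region (34.5 against 2.80) and the far FCRL5 region (34.7 against 3.56). KMS34 and PE1 were the closest pair of lines here too, at 0.95, and their sums differed by ratios of 0.66 to 1.54 over the 7 genes with counts in both.

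Across the lines the summed levels of the antigens correlated weakly. The 28 pairwise correlations of summed log2 levels ran from -0.41 (TNFRSF13B with TNFRSF13C) to 0.27 (TNFRSF17 with TNFRSF13C), with a median of -0.02. These are descriptions over 22 libraries that share depth and total, and those with BST1 or TNFRSF13C rest on levels near the lower limit of detection. Regions of the same gene were more alike, with a median correlation of 0.31 over 177 pairs against 0.003 over 603 pairs from different genes. Likeness within a gene was greatest for TNFRSF13B (median 0.64 over 6 pairs) and SDC1 (0.44 over 36) and smallest for CD38 (0.17 over 28), apart from genes with 1 such pair. These levels were not divided by the local count. The TNFRSF13B regions in these pairs were all highest in KMS26, where that count was 2.84 times the median line's. The part of the neighbourhood in the likeness was not tested.

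Among genes elsewhere in the genome, those whose start region most resembled each antigen's start over the 22 lines were sought by Pearson's r of log2(CPM + 1), over 14684 to 14837 genes with a mean of at least 5 CPM. For SDC1 these were ORC2 (r = 0.85), RP11-343H19.1 and SLC31A2 (0.84 each), and for TNFRSF17 they were ILK (0.84), C9orf116 (0.83) and CTB-175E5.7 (0.82). TNFRSF13C was most like PLCB2 (0.77), NARS2 (0.76) and TP53I11 (0.74), FCRL5 most like RP11-554D14.2 (0.75), RP3-471M13.2 (0.72) and PAK7 (0.71), and CD38 most like ZNF681 (0.75), C10orf99 (0.70) and TRIM61 (0.68). TNFRSF13B was most like RP11-779O18.2 (0.75), SCO2 (0.74) and PPP6R2 (0.73), BST1 most like NCR3LG1 (0.75), EFCAB10 (0.74) and CTD-2311B13.7 (0.69), and GPRC5D most like PHACTR3 (0.72), PTPN6 (0.70) and AASDHPPT (0.69). Spearman's rho ran from 0.12 to 0.87 over these 24 genes, and it was furthest below Pearson's r for TP53I11 with TNFRSF13C (0.12) and for SLC31A2 (0.50) and ORC2 (0.60) with SDC1. The leading values are the highest of all these genes. The minimum of 5 CPM was not applied to the antigens themselves. The starts of TNFRSF13C and BST1 had means of 1.23 and 1.33 CPM, so their values rest on levels near the lower limit of detection.

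The effect of lenalidomide was tested within the 6 lines that had both libraries. No antigen region passed the test, whether at the starts or at distal sites. Of the 55 regions, 28 had enough counts to be tested (10 of FCRL5, 8 of SDC1, 6 of CD38, 2 of TNFRSF13B, and 1 each of TNFRSF17 and GPRC5D), and 0 were changed by edgeR's quasi-likelihood test at an adjusted p below 0.05. Among all 37732 regions tested, 4.2% were raised and 1.24% were lowered, so that the share of 0 among 28 lies near the background. At an unadjusted p below 0.05 there were 3 regions (10.7%), against 17.4% of all regions, and DESeq2 also called 0. The median log2 fold change of the 28 regions was -0.05, against -0.01 over all regions, with 13 above and 15 below 0. The 27 regions not tested had at most 176 counts over the 12 libraries.

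**Figure D4:**
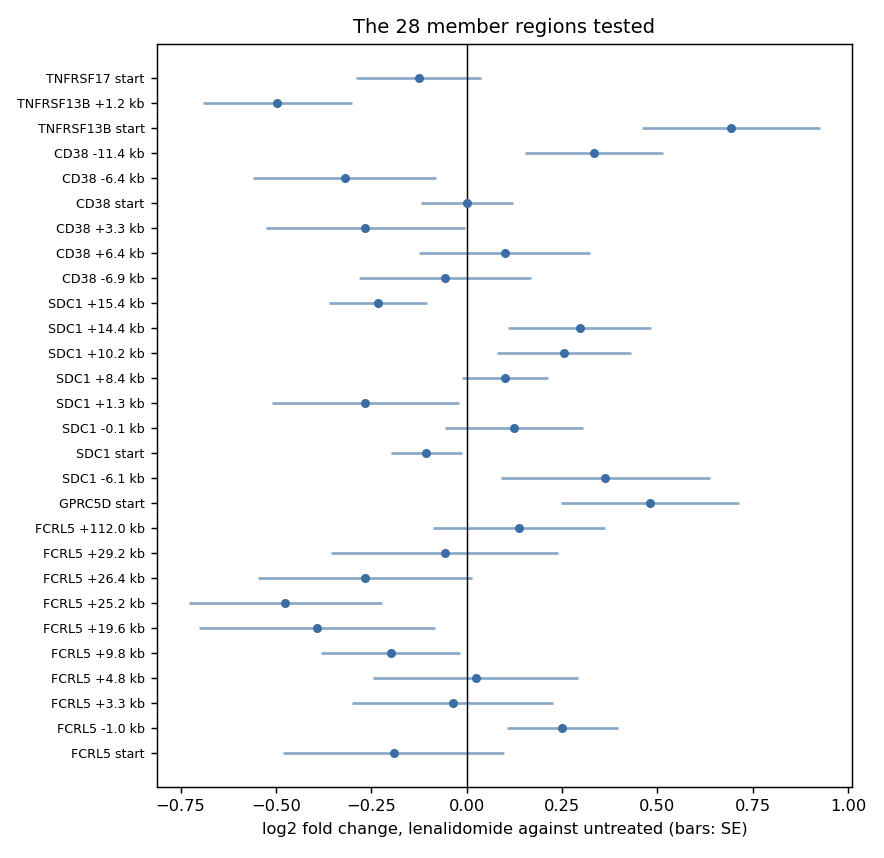
Log2 fold change with lenalidomide (points) and its standard error (bars) for the 28 antigen regions tested in 6 pairs of libraries, labelled by gene and distance to the nearest annotated start. The values run from -0.50 at the TNFRSF13B intron region to 0.69 at the TNFRSF13B start, and none passed the test.

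The smallest p in each direction was at TNFRSF13B, at neighbouring regions. At the start, the level went from 0.694 to 0.783 CPM in Karpas620, 3.71 to 9.92 in KMS27, 29.6 to 39.2 in L363, 7.55 to 11.6 in MM1S, 1.04 to 2.71 in OPM2 and 8.50 to 12.9 in RPMI8226. It was higher in 6 of 6 lines by CPM. In Karpas620, however, each library held 2 counts, and in OPM2 the count went from 2 to 6, near the lower limit of detection. The groups overlapped because lines differed far more than treatments. The log2 fold change was 0.69 (SE 0.23, edgeR p = 0.0052, adjusted p = 0.076). At the intron region, the level went from 9.02 to 7.83 CPM in Karpas620, 12.8 to 7.87 in KMS27, 17.3 to 13.4 in L363, 19.2 to 9.44 in MM1S, 26.1 to 17.2 in OPM2 and 8.03 to 8.47 in RPMI8226. It was lower in 5 of 6 lines, with a log2 fold change of -0.50 (SE 0.20, edgeR p = 0.016, adjusted p = 0.15). The sequences of both are printed above, and neither shows a match to the 6 motifs. Summed over its regions TNFRSF13B had a log2 fold change of -0.04 (SE 0.15, adjusted p = 0.96).

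The third region under an unadjusted p of 0.05 was the GPRC5D start. It went from 4.86 to 4.70 CPM in Karpas620, 1.35 to 4.10 in KMS27, 7.65 to 12.9 in L363, 7.21 to 11.2 in MM1S, 21.9 to 25.8 in OPM2 and 4.72 to 5.41 in RPMI8226. The level was higher in 5 of 6 lines, and the log2 fold change was 0.48 (SE 0.23, edgeR adjusted p = 0.28). By CPM the other GPRC5D region, upstream of the internal start, went the opposite way and was lower in 6 of 6 lines. It went from 9.91 to 4.07 CPM in OPM2 but only from 0.944 to 0.942 in RPMI8226. With 82 counts over the 12 libraries it was not tested.

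**Figure D5:**
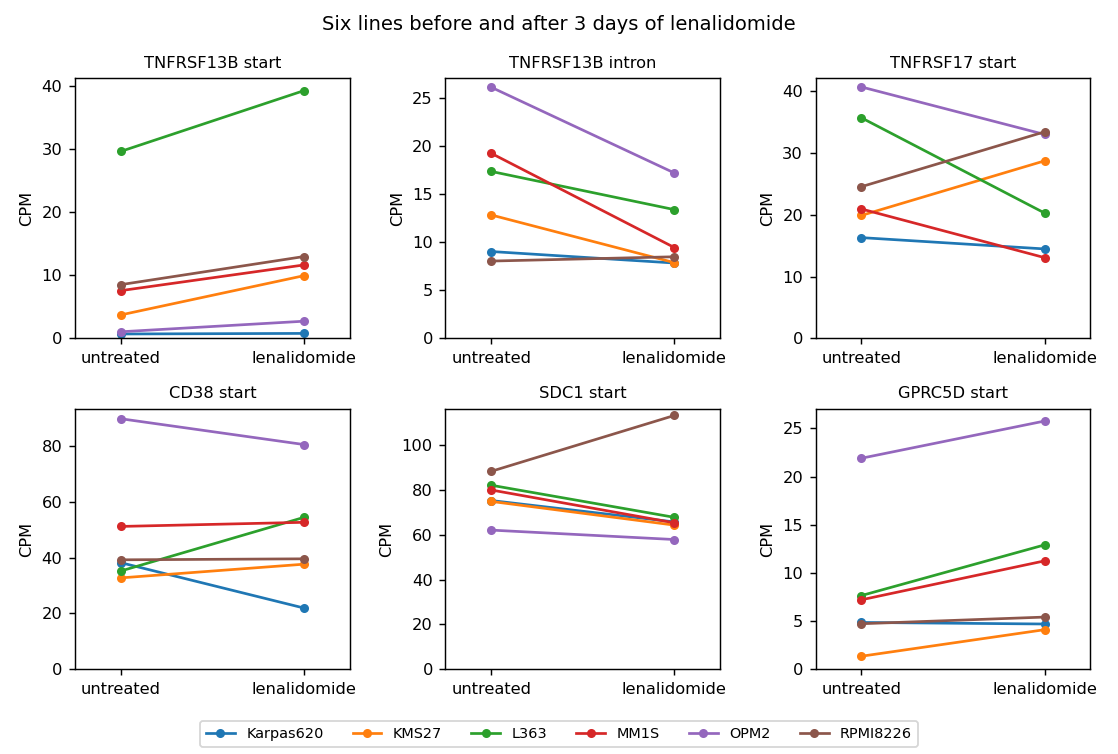
CPM of 6 antigen regions in each of the 6 lines without and with 10 µM lenalidomide for 3 days; each line joins the 2 libraries of one cell line, and each panel has its own axis from 0. By CPM the TNFRSF13B start was higher in 6 of 6 lines, of which Karpas620 had 2 counts in each library. The TNFRSF13B intron region was lower in 5 of 6, and the other panels hold lines that moved either way.

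The most accessible starts moved little or in both directions. The SDC1 start was lower in 5 lines and higher in RPMI8226 (88.3 to 113 CPM), with a log2 fold change of -0.11 (SE 0.09). The CD38 start went from 38.2 to 21.9 CPM in Karpas620, from 35.2 to 54.4 in L363 and from 89.7 to 80.5 in OPM2, with a fitted log2 fold change of 0.0015 (SE 0.12) and a plain mean of the 6 differences of -0.011 on the log2 scale. The TNFRSF17 start had a log2 fold change of -0.13 (SE 0.16), higher in 2 lines and lower in 4. Within the 6 lines, differences between lines were larger than differences between the 2 libraries of a line at 14 of 15 regions named by start or height, by a median of 1.96 times, and the exception was the SDC1 start (0.84 times). At 13 of the 15 the same line was highest with and without lenalidomide.

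With all regions of a gene summed, 6 of the 8 antigens could be tested, and 0 passed, against 1.96% of 27111 genes raised and 0.35% lowered. The log2 fold changes and 95% intervals from the standard errors were -0.13 (-0.43 to 0.17) for TNFRSF17, -0.04 (-0.33 to 0.25) for TNFRSF13B, 0.02 (-0.18 to 0.23) for CD38, -0.02 (-0.16 to 0.12) for SDC1, 0.14 (-0.26 to 0.54) for GPRC5D and -0.02 (-0.18 to 0.13) for FCRL5. TNFRSF13C and BST1, with 92 and 41 counts over the 12 libraries, were too low to test.

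Other genes of the same pathways were read from lists, beside a share over all genes of 1.96% raised and 0.35% lowered. CD40 was in the BAFF and APRIL list and also among the other surface targets. In the BAFF and APRIL pathway (21 further genes, 19 tested), 1 gene rose and 0 fell, with a median log2 fold change of 0.10 against -0.0008 over all genes. It was TRAF1, an adaptor of TNF receptors and an NF-kB target, whose 11 regions went from 74.6 to 77.1 CPM in Karpas620, 86.0 to 131 in KMS27, 105 to 119 in L363, 98.2 to 108 in MM1S, 50.1 to 76.4 in OPM2 and 166 to 214 in RPMI8226. The log2 fold change was 0.34 (SE 0.09, edgeR adjusted p = 0.028), higher in 6 of 6 lines, and by DESeq2 the adjusted p was 0.10. The call was lost without KMS27 (adjusted p = 0.16), OPM2 (0.13), RPMI8226 (0.078) or L363 (0.051). The ligand genes TNFSF13 (APRIL) and TNFSF13B (BAFF) had log2 fold changes of 0.95 (SE 0.35, adjusted p = 0.17) and 0.36 (SE 0.15, adjusted p = 0.24). Among 9 NAD and purine ectoenzymes (8 tested), 19 syndecan, glypican and heparan sulphate genes (17 tested) and 10 relatives of FCRL5 and GPRC5D (9 tested), 0 passed in either direction, and none by DESeq2. At an unadjusted p below 0.05 there were 7 of 19 genes in the BAFF and APRIL pathway, 0 of 8 ectoenzymes, 4 of 17 heparan sulphate genes, 0 of 9 relatives and 5 of 20 other surface targets, against 3792 of all 27111 genes.

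Of 25 other surface targets (20 tested), 1 rose and 1 fell, against 1.96% of all genes raised and 0.35% lowered. The median log2 fold change was 0.05. ITGB7, the integrin beta 7 chain, went from 37.5 to 59.9 CPM in Karpas620, 35.4 to 44.8 in KMS27, 42.8 to 59.9 in L363, 77.2 to 108 in OPM2 and 110 to 145 in RPMI8226, and was at 111 and 111 in MM1S. Its log2 fold change was 0.40 (SE 0.10, edgeR adjusted p = 0.020), higher in 5 of 6 lines. CD44, the hyaluronan receptor, fell from 79.1 to 73.2 CPM in Karpas620, 89.0 to 75.9 in KMS27, 40.3 to 27.7 in L363, 145 to 110 in MM1S, 70.4 to 47.5 in OPM2 and 28.3 to 16.5 in RPMI8226, lower in 6 of 6 lines (log2 fold change -0.38, SE 0.10, edgeR adjusted p = 0.046). SLAMF7, the target of elotuzumab, had a log2 fold change of -0.10 (SE 0.09, adjusted p = 0.72). By DESeq2 the adjusted p was 0.068 for ITGB7 and 0.11 for CD44. The ITGB7 call was lost without OPM2 (adjusted p = 0.10), Karpas620 (0.086), L363 (0.069) or RPMI8226 (0.056), and the CD44 call without OPM2 (0.15), MM1S (0.12), L363 (0.12), KMS27 (0.086) or RPMI8226 (0.063).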

How the data were processed

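ATAC-seq libraries from 22 untreated myeloma lines and from 6 of them after lenalidomide were used. Per the labels and the study's methods, the authors aligned reads to GRCh37 with Bowtie2 2.2.6, marked duplicates with SAMtools 1.7, called peaks per library with MACS2 2.1.0.20151222 and merged them into regions. They deposited a count of reads per region, a table of peaks per region, also as counts, and RPM; the RPM equalled counts relative to a deposited total of 1000000 and are called CPM. Reads carried no molecular identifiers.

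The lenalidomide test was edgeR 4.0.16 in R 4.3.3 (quasi-likelihood, TMM factors, a filter on low counts by condition, cell line as a block). Benjamini-Hochberg adjustment was over all regions or, for sums per nearest gene, all genes. It recovered known changes in simulated counts, which had a single dispersion and larger changes than those at the antigens. Its power for changes of the size seen at the antigens was not tested. The block pairs the 2 libraries of a line as the labels name them. With it, p-values measure how the change with lenalidomide varied between lines, not how levels differed between lines. Alternatives were DESeq2 1.42.0, other scalings and filters, no block, and leaving out each line. Log2 levels used a pseudocount of 1. Named were, for each gene, the region nearest the start (ties: the higher mean), the tallest other region, regions past the threshold or with the smallest p in each direction, the 3 genes most like the start, and in each list the largest rise and fall past the threshold. The antigens, lists and tests were chosen with earlier results of these data known. Some sequences are not reported here.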

Additional observations from a re-analysis of the deposited data

Results flagged for a closer look

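Among 44 sets of 6 lenalidomide libraries or 6 changes at the antigens, 9 held a value far from the other 5 by Dixon's criterion. It flags about 1 in 20 independent sets by chance, but these sets are not independent, since a sum includes its start region. L363 had a TNFRSF13B sum of 71.5 CPM with lenalidomide, against 12.1 to 29.4 in the others, and a TNFRSF13B start at 39.2 CPM against 0.783 to 12.9. Karpas620 had a TNFRSF13C sum of 10.6 CPM against 0.342 to 2.82, a TNFRSF13C start at 8.61 CPM against 0.342 to 0.471, and a low CD38 sum of 52.4 CPM against 107.9 to 130. RPMI8226 had an SDC1 sum of 358 CPM against 155 to 226 and an SDC1 start at 113 CPM against 57.9 to 67.8, and its log2 change at that start was 0.36, while the other 5 lines had -0.29 to -0.10. BST1 in L363 had a log2 change of -1.60, against -0.36 to 0.33, at levels near the lower limit of detection. Several of these levels were already apart without lenalidomide. The untreated sums of TNFRSF13B in L363 (64.8 CPM), TNFRSF13C in Karpas620 (7.63) and SDC1 in RPMI8226 (284) were the highest of the 6 lines. The untreated CD38 sum of Karpas620 was 77.4 CPM, and L363 was lower at 68.8.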

How the results depend on the processing

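No antigen region and no antigen sum passed the test in the 12 alternatives run, in which at least 5 pairs were kept. The counts over all features did move. By DESeq2, 834 regions changed (722 raised, 112 lowered) and 275 genes (251 and 24). With no filter on low counts, 4092 regions changed and 3608 were raised, and with at least 10 counts in each library 599 regions (489 and 110) and 367 genes (315 and 52) changed. Without the replicate block, that is without pairing by cell line, 0 regions and 0 genes passed in either direction, with 437 and 164 at an unadjusted p below 0.05, against 2054 regions (1585 raised, 469 lowered) and 627 genes (532 and 95) with it. Leaving out 1 line gave 1040 to 2473 changed regions (845 to 1874 raised, 195 to 599 lowered) and 274 to 796 genes (245 to 662 and 29 to 134). The causes were not tested.

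Log2 changes near 0 changed sign. The CD38 start was at -0.0064 by DESeq2, -0.0059 without TMM and -0.0039 with DESeq2 size factors, and at -0.10 to 0.12 without 1 line. Without the block the TNFRSF13B sum was at 0.0012 and the SDC1 sum at 0.012. Without 1 line, the TNFRSF17 start ran from -0.29 to 0.013 and the sums of TNFRSF13B from -0.15 to 0.025, CD38 from -0.090 to 0.12, SDC1 from -0.12 to 0.012 and FCRL5 from -0.074 to 0.0030. The adjusted p of the TNFRSF13B start ranged from 0.069 to 1.00 and of its intron region from 0.072 to 1.00. TRAF1, ITGB7 and CD44 kept their direction in all 12 alternatives.

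Counting only the region nearest the start lowered the median level to 2.68 CPM for TNFRSF13B, 0.745 for TNFRSF13C, 46.1 for CD38, 73.4 for SDC1 and 4.55 for FCRL5. With a level of at least 2 or 5 CPM in place of a peak, 13 and 7 of the 55 regions were accessible in all lines, against 3. Leaving out PE1, chosen after seeing the data, gave 3, and leaving out PCM6, where the SDC1 start lacked a peak, gave 4. The ratio of the highest to the lowest TNFRSF13B line, each plus 1 CPM, was 52.3, and it was 10.3 after local scaling and 12.0 without KMS26. Without PCM6 the SDC1 ratio was 3.41 in place of 6.17.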
